A study of Sus scrofa with 12 samples.

Results

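Interferon-stimulated genes were examined in porcine hearts after ischemia-reperfusion injury, next to the infarct and far from it. The 9 genes were ISG15, IFIT1, IFIT2, IFIT3, MX1, MX2, IFI44, RSAD2 and IRF7, chosen by name as commonly used reporters of the type I interferon response. All 9 had an Ensembl identifier among the 35682 genes of the count files, and all 9 were among the 13844 genes that passed the filter on low counts and were tested. The libraries came from 6 female Yorkshire pigs, 10 to 12 weeks old by the study's methods. In every animal the left anterior descending coronary artery was occluded by a balloon for 60 minutes. Every animal was also immunosuppressed from day 9 after injury with prednisolone at 20 mg, mycophenolate mofetil at 500 mg and tacrolimus at 0.75 mg per kg of body weight, each per day. On day 14 an animal received either vascular organoids of human endothelial progenitor cells and smooth muscle cells or fibrin glue alone. The labels do not give which animal received which, so the animals are named by number (1022, 1322, 1323, 1623, 1922 and 3622), and a difference between animals cannot be told apart from a difference in this treatment. Each animal gave 1 border zone library, from tissue next to the infarct, and 1 remote zone library, from the posterior wall. Both carry the word Mid in their titles, which the labels do not define. Hearts were taken 4 weeks after the topical treatment.

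Type I interferons are secreted when a cell senses foreign or misplaced nucleic acid. They bind the receptor pair IFNAR1 and IFNAR2, which acts through the kinases JAK1 and TYK2, and a transcription factor complex that includes IRF9 then binds the interferon-stimulated response element (ISRE) in the promoters of its target genes. Many of the targets block viral replication, and IRF7 feeds back on the system by switching on further interferon genes. In the infarcted heart, macrophages and other cells that sense DNA of dying cells are a known source of this response.

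The promoters of the members are shown first, because the complex binds the ISRE in the promoters of its target genes. The ISRE core was searched as the letters GAAANNGAAA, on both strands, from 250 bases before to 50 bases after the gene start in RefSeq's annotation of Sscrofa11.1. Of 19531 promoters, 698 (3.57%) held a match. Of the 9 members, 5 did, which were ISG15, IFIT1, IFIT2, IFIT3 and RSAD2. In IFIT2 both matches lay after the start and are not shown. MX1, MX2, IFI44 and IRF7 had no match with this spacing in this window. MX1 and MX2 each held 2 matches with 1 base between the copies (GAAANGAAA), a form found in 3.33% of all promoters. These stretches are shown because they carry the matches of the members described below, with matches in capitals, in the direction of the gene (a match on the opposite strand reads as TTTC, the spacer, and TTTC again).
ISG15, chr6:63363052-63363117, plus strand: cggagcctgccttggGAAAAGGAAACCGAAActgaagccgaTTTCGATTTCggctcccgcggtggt
IFIT1, chr14:101237379-101237403, plus strand: cactgcctactttaaTTTCACTTTC
IFIT3, chr14:101214648-101214718, plus strand: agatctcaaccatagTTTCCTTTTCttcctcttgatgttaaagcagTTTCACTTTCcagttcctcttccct
RSAD2, chr3:128897915-128897954, minus strand: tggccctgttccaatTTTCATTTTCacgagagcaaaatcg
MX1, chr13:204842946-204843030, plus strand: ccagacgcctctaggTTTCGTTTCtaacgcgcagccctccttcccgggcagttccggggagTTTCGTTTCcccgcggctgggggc
MX2, chr13:204798509-204798572, plus strand: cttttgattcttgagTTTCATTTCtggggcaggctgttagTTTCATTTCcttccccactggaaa
The first 2 matches of ISG15 overlap by 4 bases. A match is a description of the letters and was not tested for binding.

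Several members are neighbours in the genome. IFIT2 (chr14:101193421-101204292), IFIT3 (chr14:101214730-101225169) and IFIT1 (chr14:101237403-101249486) lie in a row on the plus strand of chromosome 14. All 3 fall within the span of LIPA, the lysosomal acid lipase, on the minus strand. The libraries were nondirectional, so reads of IFIT genes and of overlapping LIPA transcripts cannot be told apart by strand. MX2 (chr13:204798633-204821612) precedes MX1 (chr13:204843049-204868927) on the plus strand of chromosome 13. ISG15 (chr6:63363201-63364211) overlaps the end of LOC110261384 on the other strand. IFI44 (chr6:134634679-134649857), RSAD2 (chr3:128880853-128897809) and IRF7 (chr2:372235-375572) are on the minus strand and overlap no other annotated gene. The IFIT genes and the MX pair are families of similar sequence, and how reads that match several genes were counted is not given in the sources used here.

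The 12 libraries held between 15130210 and 31618680 counts on genes. Together the 9 members took between 0.00667% and 0.0992% of the counts of a library, and the lowest count of any member in any library was 76. Some libraries stood apart, both of them from the border zone. That of animal 3622 listed 28024 genes with a count, against 16932 to 20148 in the other 11. That of animal 1022 had 6910 CPM (counts divided by TMM-scaled library size, as CPM throughout) summed over the 5 cardiomyocyte markers with an identifier, against at least 24554 CPM in the other border zone libraries, and 49815 CPM over 6 fibroblast and matrix markers, against at most 9316 CPM. Cardiomyocyte markers were present in every library. In bulk tissue, fewer cells of a type and less RNA per cell cannot be told apart.

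All 9 genes were expressed in both zones, and the border zone library of animal 1022 was the highest of its zone for every one of them. MX1, a GTPase that blocks incoming viruses, had between 16.8 and 195 CPM in the border zone, with a median of 26.6 CPM, and between 10.6 and 32.0 CPM in the remote zone, with a median of 16.8 CPM. The border zone library of animal 1022 stood 6.19-fold above the next border zone library. MX2, the related GTPase, ranged from 14.7 to 161 CPM in the border zone (median 26.1 CPM) and from 8.69 to 36.2 CPM in the remote zone (median 19.1 CPM). The highest library was again that of animal 1022, at 4.94-fold the next, and the other 5 animals had between 14.7 and 32.6 CPM in the border zone and between 8.69 and 24.0 CPM in the remote zone.

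ISG15, a ubiquitin-like protein that is joined to other proteins, had 15.6 to 98.1 CPM in the border zone (median 23.6 CPM) and 17.1 to 46.4 CPM in the remote zone (median 19.8 CPM). The zones overlapped almost wholly once animal 1022 was set aside, with 15.6 to 30.0 CPM in the other border zone libraries and 17.1 to 26.5 CPM in the other remote zone libraries. RSAD2 (viperin), a radical-SAM enzyme that makes a chain-terminating nucleotide, had 11.5 to 81.6 CPM in the border zone (median 22.5 CPM) and 11.2 to 48.9 CPM in the remote zone (median 21.6 CPM). Both RSAD2 and ISG15 were highest in animal 1022 in either zone, by 2.06-fold and 1.75-fold over the next remote zone library. IRF7, the transcription factor of the group, had 7.01 to 55.6 CPM in the border zone (median 12.8 CPM) and 7.25 to 21.8 CPM in the remote zone (median 9.44 CPM).

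IFIT1 binds RNA that lacks the cap modifications of the host, and IFIT2 and IFIT3 are its partners. IFIT1 had 14.1 to 44.9 CPM in the border zone (median 18.4 CPM) and 14.3 to 26.7 CPM in the remote zone (median 19.1 CPM). IFIT2 had 4.76 to 32.8 CPM (median 8.39 CPM) and 5.08 to 13.7 CPM (median 8.30 CPM) in the same order, and IFIT3 had 8.65 to 47.2 CPM (median 10.4 CPM) and 6.24 to 17.7 CPM (median 8.58 CPM). IFIT1 and IFIT2 were the 2 members for which animal 1022 was not the highest in the remote zone, where animal 1323 was. IFI44, a cytoplasmic protein of less known function, had 8.68 to 49.3 CPM in the border zone (median 13.2 CPM) and 6.81 to 17.5 CPM in the remote zone (median 10.7 CPM). For no member did the 6 border zone libraries all lie above or below the 6 remote zone libraries, a separation seen in 2.69% of the genes tested.

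**Figure D1:**
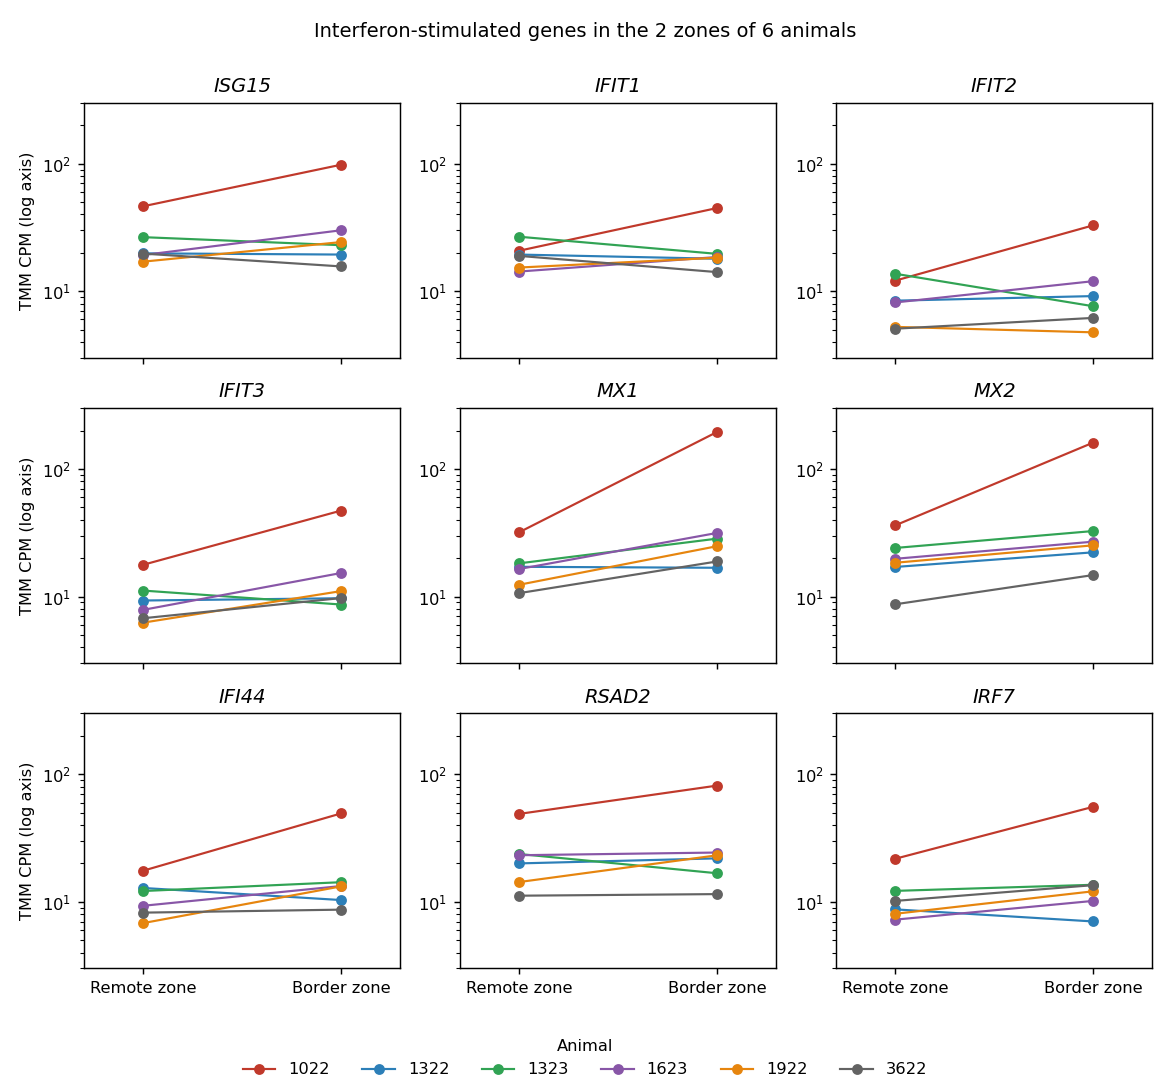
TMM-scaled CPM (log axis) of the 9 genes in the remote zone and the border zone, with 1 panel per gene and 1 line per animal joining its 2 libraries. The line of animal 1022 ends highest in the border zone of every panel, at 195 CPM for MX1, against at most 31.5 CPM in the other 5 animals.

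Animal 1022 was the highest of the 6 in the border zone for 9 of 9 members, against 32.6% of all genes tested. In the remote zone it was the highest for 7 of 9 members, against 13.5% of all genes. It was the highest in both zones for 7 of 9 members, against 4.63% of all genes. Its border zone library was set apart from the other 5 by Dixon's criterion for 7 of 9 members, against 3.97% of all genes. This animal was singled out after its values were seen. Macrophage markers were also highest in this library. The 8 macrophage markers summed to 908 CPM in animal 1022 in the border zone, against 76.3 to 206 CPM in the other 5, but 91.6 CPM in its remote zone library, within the 75.6 to 130 CPM of the other remote zone libraries. The 7 T and NK cell markers summed to 73.5 CPM in its border zone library (the others 8.23 to 24.1 CPM) and to 16.4 CPM in its remote zone library (the others 8.78 to 16.1 CPM). Among the other 5 border zone libraries, animals 1322, 1922, 1323 and 1623 had the same order by both sums. Their macrophage sums were 76.3, 101, 166 and 206 CPM, and their member sums were 134, 157, 165 and 182 CPM. Animal 3622 broke this order, with 171 CPM of macrophage markers and the lowest summed level of the members, 112.9 CPM. The part of these cell types in the values of either zone was not tested.

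Whether the zones differed was asked next, with edgeR's quasi-likelihood test on all 13844 genes. All 9 fitted log2 fold changes were above 0, with a median of 0.71 against 0.04 over all genes, and none had an adjusted p-value under 0.05, where 2.07% of all genes did. Without animal 1022 the median of the members was 0.27 and 7 of 9 were above 0, with MX1 at 0.68 (adjusted p = 0.147), MX2 at 0.46 (adjusted p = 0.396) and both IFIT1 (-0.10) and IFIT2 (-0.04) below 0. The members with an unadjusted p under 0.05 were 2 of 9, against 24.7% of all genes, so their share was near the background. The Wald test of DESeq2 gave 7 members an adjusted p, of which 0 passed, and gave none to MX1 and MX2. MX1 had the largest fitted difference of the 9, at 1.56 ± 0.58 (log2 fold change ± standard error, adjusted p = 0.131), and 5 of 6 animals had more of it in the border zone. MX2 followed with 1.19 ± 0.54 (adjusted p = 0.195), and it was the only member for which 6 of 6 animals had more in the border zone, as held for 11.7% of all genes. IFIT3 had 0.78 ± 0.43 (adjusted p = 0.27). IRF7 and IFI44 had 0.72 and 0.71, with adjusted p = 0.354 and 0.288. ISG15, IFIT2, RSAD2 and IFIT1 had the smallest fitted differences, 0.50, 0.46, 0.34 and 0.21, with adjusted p of 0.487, 0.539, 0.677 and 0.658. Without animal 1022 the values of IFIT3, IRF7, IFI44, ISG15 and RSAD2 were 0.39, 0.28, 0.27, 0.13 and 0.08.

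Within animals the sign of the difference was not the same for all members, and whether members differed from each other was not tested. The MX genes were higher in the border zone of nearly every animal, whereas ISG15 and IFIT1 were higher in 3 animals and lower in the other 3. In animal 1323, the log2 CPM of IFIT2 was lower in the border zone by a difference of -0.84 and that of RSAD2 by -0.50, while that of MX1 was higher by 0.64. In animal 1322, the difference was -0.31 for IFI44 and -0.31 for IRF7, and 0.38 for MX2. In animal 1022 all 9 differences were above 0, from 0.74 for RSAD2 to 2.61 for MX1. Of the 9 members, 6 had more in the border zone in at least 5 animals, against 28.8% of all genes.

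**Figure D2:**
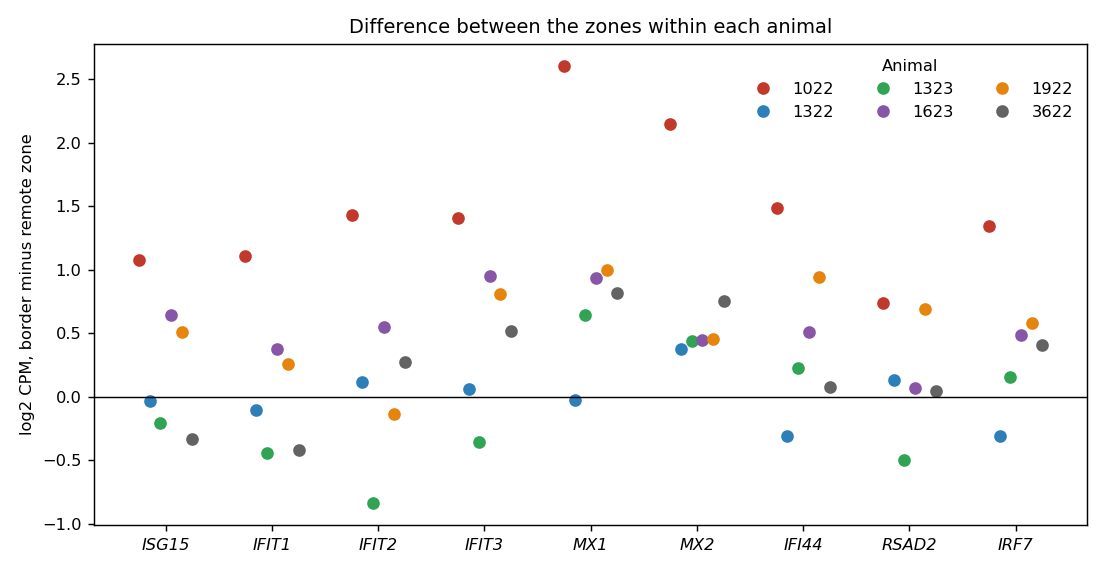
Difference in log2 CPM, border zone minus remote zone, for each gene (columns) and each animal (colours), 1 point per animal. The points of animal 1022 run up to 2.61 for MX1, and MX2 is the only gene with all 6 points above 0.

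With the animal as a block, so that each border zone library was set against the remote zone library of the same heart, the fitted differences were smaller and their errors smaller too. MX1 was at 0.99 ± 0.30 (adjusted p = 0.0932) and MX2 at 0.76 ± 0.24 (adjusted p = 0.0997). For the 9 members the median was 0.45 (0.26 without animal 1022) and none passed the threshold, where 0.296% of all genes did. At an unadjusted p under 0.05 there were 3 of 9, against 29.4% of all genes. Without animal 1022, in the fit with the block, MX1 was at 0.67 ± 0.16 (adjusted p = 0.0458) and MX2 at 0.49 ± 0.11 (adjusted p = 0.0367), both smaller differences than with it and both past the threshold. In that fit 6.19% of all genes passed and 4.11% passed as higher in the border zone. The other 7 members did not pass in it, with adjusted p from 0.256 for IFIT3 to 0.971 for IFIT2, and the fitted values of IFIT1 (-0.07) and IFIT2 (-0.02) were below 0. This fit was chosen after the data were seen. With each of the other animals left out in turn, the block gave no call among the members.

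**Figure D3:**
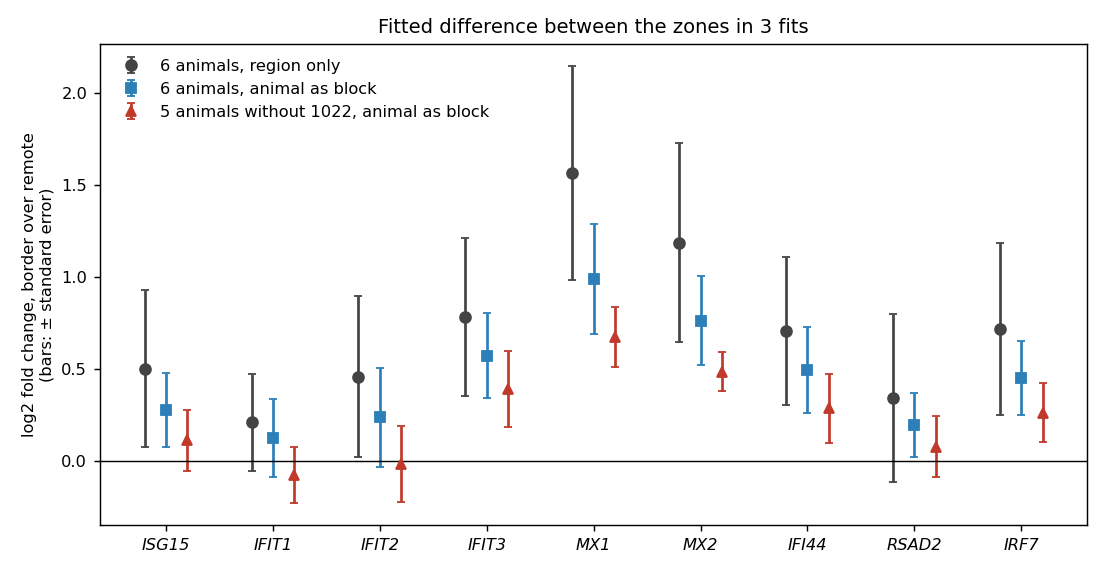
Fitted log2 fold change of border over remote zone for each gene, with bars of ± 1 standard error, in the fit of region alone (circles), with the animal as a block (squares) and with the block but without animal 1022 (triangles). MX1 falls from 1.56 to 0.99 to 0.67 and stays the highest, while IFIT1 and IFIT2 end at -0.07 and -0.02.

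The difference between animals was then tested with the zone held constant, by the joint test of the animal terms in edgeR. The smallest adjusted p among the members was that of RSAD2, at 0.0831 (F = 17.3), and none passed the threshold, where 0.195% of all genes did. At an unadjusted p under 0.05, 8 of 9 members differed between animals, all but IFIT1, against 18.8% of all genes. This count rested on animal 1022, since without it 3 of 9 members had an unadjusted p under 0.05, against 32.9% of all genes. IRF7 (F = 13.0, adjusted p = 0.123), MX2 (F = 12.6, adjusted p = 0.126) and ISG15 (F = 10.9, adjusted p = 0.141) came next. By the likelihood ratio test of DESeq2 the same 8 members passed an adjusted p of 0.05, as did 12.9% of all genes tested there. In edgeR without animal 1022, MX2 alone passed (adjusted p = 0.0271), where 6.23% of all genes did. Its remote zone levels ran from 8.69 CPM in animal 3622 to 24.0 CPM in animal 1323 among those 5.

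The sum of squares of log2 CPM over the 12 libraries was split in the same way for each gene as a description. For RSAD2, 91.1% lay between animals and 1.57% between zones. For MX1, 62.0% lay between animals and 23.2% between zones, the highest share for the zone among the members. For IFIT1, 59.0% lay between animals and 38.8% in neither. Over the 9 members the median share between animals was 73.4%, against 51.7% over all genes tested, and that between zones was 8.02%, against 14.6%. Over the 10 libraries without animal 1022 the median share between animals was 54.0% for the members and 59.0% for all genes, so the higher share of the members rested on that animal. The median share between zones over those libraries was 15.3% for the members and 11.8% for all genes, so the lower share of the members rested on it too. MX1 then had 52.3% between zones and 32.0% between animals. This split without animal 1022 was added after the data were seen.

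**Figure D4:**
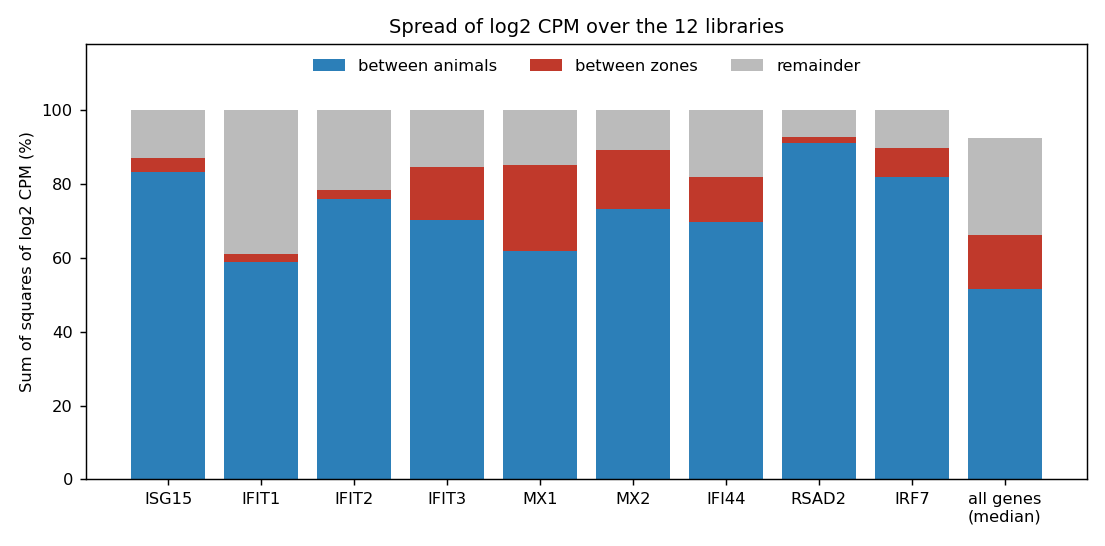
Share of the sum of squares of log2 CPM over 12 libraries that lay between animals, between zones or in neither, for each gene and as the median of each share over all genes tested (the medians need not add up to 100%). RSAD2 reaches 91.1% between animals, and MX1 has the largest share between zones of the 9 genes at 23.2%, all with animal 1022 included.

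The members varied together from library to library. Over the 12 libraries the 36 pairs of members had Pearson correlations of log2 CPM from 0.71 to 0.96, with a median of 0.88, and the points share animals and libraries. Subtracting the zone means left the median at 0.89. Over the 10 libraries without animal 1022 the median was 0.56 and the range ran from -0.26 to 0.82, so much of the correlation rests on that animal. Against the mean of the other 8 members, IFI44 (r = 0.97) and ISG15 (r = 0.97) followed the group most closely, and IFIT1 (r = 0.87), IFIT2 (r = 0.88) and IRF7 (r = 0.88) had the lowest values. Without animal 1022, IFI44 (r = 0.87) and ISG15 (r = 0.84) had the highest values and IRF7 the lowest (r = 0.26).

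Among all other genes, the 5 whose log2 CPM correlated most with the mean standardised level of the members over 12 libraries were TMTC1 (r = 0.97), HERC5 (r = 0.96), PARP14 (r = 0.96), SLC25A24 (r = 0.95) and EIF2AK2 (r = 0.95). HERC5 is the ligase that attaches ISG15, EIF2AK2 is the kinase PKR that halts translation, and PARP14 is an ADP-ribosyltransferase. Without animal 1022, the correlations of these 5 were 0.93, 0.67, 0.80, 0.84 and 0.71. Ranked over those 10 libraries, the first 5 were TMTC1, FAM3C, RELL1, ILDR2 and TUBA1A, so that 1 of the 5 genes was shared and none of the new 5 was in the interferon lists.

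LIPA, on the other strand of the IFIT genes, was highest in animal 1022 in the border zone, at 102.5 CPM against 20.6 to 35.8 CPM in the other 5. In the remote zone animal 1022 had the lowest level, 15.4 CPM, against 17.9 to 20.3 CPM. Its correlation with IFIT1, IFIT2 and IFIT3 was 0.73, 0.71 and 0.81 over 12 libraries and -0.06, 0.27 and 0.72 without animal 1022. The part of LIPA reads in the IFIT values was not tested.

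The rest of the pathway was described by role, from lists of genes with a known place in it. The interferons that had an identifier were barely present, and the others listed could not be looked up. Of 12 ligands listed 5 had an identifier, and none passed the filter. IFNB1 had 1 count in 1 library of the 12, and IFNG had at most 4 counts in any. IFNE and IFNK had counts in 1 library, again that of the border zone of animal 3622. IFN-ALPHA-8 had 0 counts in all 6 remote zone libraries. In the border zone it had 10 counts in animal 1022, 6 in 1323, 5 in 1922, 2 in 3622, 1 in 1322 and 0 in 1623. A count of 0 allows up to 3 counts, or between 0.0883 and 0.201 CPM in these libraries, by counting error only, and the alpha interferons are a family of near-identical copies whose counts are uncertain.

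Of the 5 receptor genes tested 4 had a fitted value above 0 and none passed, with a median log2 fold change of 0.48. IFNAR2, a chain of the type I receptor, had 0.59 ± 0.22 (adjusted p = 0.13), with more in the border zone in 6 of 6 animals. IL10RB had the smallest p of this list between animals, with an adjusted p of 0.272. Of the 12 signalling and transcription factor genes, 11 were above 0 with a median of 0.57, and none passed. IRF5, which acts downstream of Toll-like receptors in myeloid cells, had 1.49 ± 0.49 (adjusted p = 0.101), and 0.86 without animal 1022 (adjusted p = 0.312). IRF9, the DNA-binding part of that complex, differed little between zones (0.19, adjusted p = 0.736) and had a smaller p between animals (F = 19.2, adjusted p = 0.0689), where the adjusted p was 0.572 without animal 1022. Its level in animal 1022 was the highest in both zones, at 71.5 CPM in the border zone and 58.4 CPM in the remote zone, where the medians were 28.7 and 26.0 CPM.

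The nucleic acid sensors and adaptors had the highest median of the lists, 1.002 over 13 genes, with 11 above 0 and none past the threshold. TLR7, an endosomal receptor for single-stranded RNA, was nearest to it at 2.22 ± 0.55 (adjusted p = 0.0501). It had 1.55 to 14.7 CPM in the border zone (median 2.37 CPM) and 0.572 to 1.2035 CPM in the remote zone (median 1.04 CPM), so that its zones did not overlap. It did not pass with the block and all animals (adjusted p = 0.0772), with no filter (adjusted p = 0.0624) or with any animal left out of the fit of region alone (adjusted p from 0.0559 to 0.154), and without animal 1022 that fit gave 1.36. It passed with library totals in place of TMM (adjusted p = 0.0235), with the Wald test of DESeq2 (adjusted p = 0.00295) and with the block without animal 1022, where it was at 1.36 ± 0.28 (adjusted p = 0.0307). RIGI, a cytoplasmic sensor of viral RNA, had 1.002 (adjusted p = 0.209) between zones, 0.64 without animal 1022 (adjusted p = 0.201), and an adjusted p of 0.084 between animals (0.174 without animal 1022). With the animal as a block RIGI was at 0.84 ± 0.19 (adjusted p = 0.0773), with more in the border zone in 6 of 6 animals. The 29 other effectors tested were all above 0, with a median of 0.55, and none passed. TRIM25, the ligase that activates RIGI, had 1.48 ± 0.50 (adjusted p = 0.11), and 0.77 without animal 1022 (adjusted p = 0.249). IFI44L, the neighbour of IFI44, had 0.20 (adjusted p = 0.725) between zones and an adjusted p of 0.0831 between animals (0.12 without animal 1022). Animal 1022 was the highest of its zone for 28 of the 29 effectors in the border zone and in both zones for 22 of the 29.

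The 13 tested targets more typical of interferon-gamma had a median log2 fold change of 0.27 between zones, with 10 of them above 0 and none past the threshold. CXCL10, a chemokine for T cells, was the single gene of all lists past the threshold between animals in edgeR with the filter and scaling used throughout (F = 26.9, adjusted p = 0.0468). With the likelihood ratio test of DESeq2, IRF9, RIGI, TRIM25, IFI44L, SOCS3 and USP18 of the genes named here passed as well, and with no filter IRF9, RIGI and USP18 did. The call was lost without animal 1322, 1323, 1623, 1922 or 3622 (adjusted p from 0.102 to 0.163) and with at least 10 counts asked of every library (adjusted p = 0.0538), and it held without animal 1022 (adjusted p = 0.0101). In 6 of 6 animals CXCL10 had more in the border zone, with 3.99 to 47.8 CPM there (median 10.3 CPM) and 2.18 to 17.6 CPM in the remote zone (median 8.69 CPM), and a difference between zones of 0.97 ± 0.61 that did not pass (adjusted p = 0.341). With the animal as a block its difference was 0.74 ± 0.19, which did not pass either (adjusted p = 0.082). Of the 7 negative regulators 3 were above 0. SOCS3, which dampens cytokine receptors, had 1.37 ± 0.43 (adjusted p = 0.0885), and 0.87 without animal 1022 (adjusted p = 0.163). USP18, which removes ISG15 from proteins, had 0.16 (adjusted p = 0.858) between zones and an adjusted p of 0.0689 between animals, which was 0.97 without animal 1022.

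**Figure D5:**
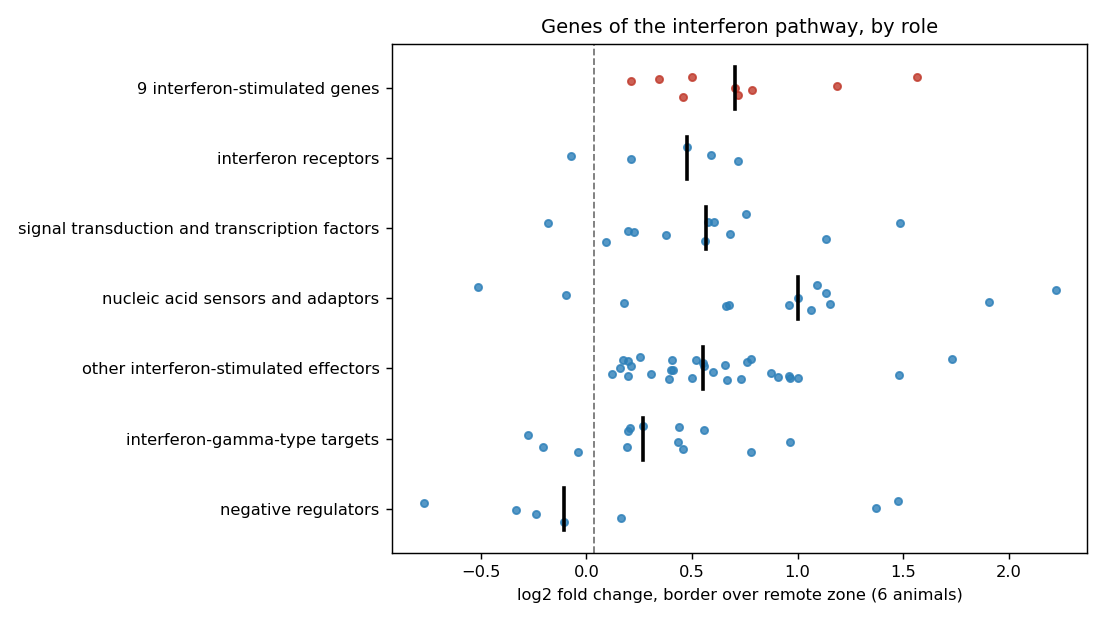
Log2 fold change of border over remote zone for each tested gene of the interferon pathway by role (points), with the median of each list (black bar) and the median over all genes (dashed line, 0.04). The members have a median of 0.71, the sensors and adaptors of 1.002 and the negative regulators of -0.11, and no point passed an adjusted p of 0.05.

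Markers of other cells gave the frame for these levels. In the border zone, 8 macrophage markers, of which 7 were tested with a median log2 fold change of 1.63, summed to a median of 168 CPM against 89.2 CPM in the remote zone, and MARCO was at 0 to 4 counts. The 7 T and NK cell markers had medians of 17.1 and 13.1 CPM. The 4 B cell markers summed to at most 4.46 CPM. Of 6 markers of plasmacytoid dendritic cells, which make much interferon, 3 had an identifier and summed to 42.9 CPM in animal 1022 in the border zone, against at most 17.5 CPM in the other animals there and 15.5 CPM in the remote zone. Most of that sum was TCF4 (at most 31.1 CPM in the border zone), which other cell types express too, while BLNK had at most 10.9 CPM in the border zone and 1.74 CPM in the remote zone, and GZMB at most 0.859 and 1.5045 CPM. None of the genes tested in these lists passed the threshold between zones, while 5 of 6 fibroblast and matrix markers did. Their part in the values of the interferon-stimulated genes was not tested.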

How the data were processed

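Reads per gene were measured by poly(A) RNA sequencing in 12 heart libraries. The authors deposited raw counts, made after FastQC 0.12.1 and MultiQC 1.17 by alignment with STAR 2.7.10a to Sscrofa11.1 (Ensembl release 113) and counting with featureCounts, whose options are not given in the sources used here. Totals of 15130210 to 31618680 counts limit precision for low genes, and PCR copies were not told apart from molecules.

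Zone and animal came from the titles. Symbols were paired with 15623 of 35682 identifiers. Counts were filtered by filterByExpr, scaled by TMM and tested in R 4.3.3 with edgeR 4.0.16 (quasi-likelihood, robust, Benjamini-Hochberg over all genes tested), with zone as the only term for border against remote zone, and zone plus animal for the differences between animals. Standard errors were obtained by dividing each log2 fold change by the square root of its F. Log2 CPM used a prior count of 2. DESeq2 1.42.0 was an alternative. Steps were tested on simulated data. The test between zones recovered 59% of 2-fold and 97% of 4-fold changes, in counts simulated with no differences between animals. The test between animals recovered 7% of 2-fold and 81% of 4-fold changes, so a missing call between animals says little about 2-fold differences.

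The animal number pairs a border zone with a remote zone library of the same heart. The deviations from the zone means correlated within animals from -0.03 (animal 1022) to 0.57 (animal 1323).

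The members and lists were chosen with earlier results of these data known. The genes named are the 9 members, from each list any gene past the threshold (otherwise that of the smallest p in each test), and the 5 genes most like the members. LIPA and the ligands were named after their values were seen. Promoters were read from the RefSeq genome and annotation of Sscrofa11.1.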

Additional observations from a re-analysis of the deposited data

Results flagged for a closer look

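For each member and zone, the distance of an extreme library from its nearest neighbour was divided by the whole range on the log2 CPM scale, in 18 groups of 6 libraries. Of these 7 had a library set apart, all in the border zone and all that of animal 1022, where chance sets apart about 1 in 20 groups. The same library was the highest and set apart in this way for 3.97% of all genes tested. The members are not independent of each other. The gap took 0.744 of the range for MX1, 0.716 for IFIT1, 0.716 for IFI44, 0.681 for IRF7, 0.668 for MX2, 0.666 for IFIT3 and 0.645 for ISG15, each above Dixon's critical value for 6 libraries. IFIT2 and RSAD2 were highest in the same library without passing this limit. No remote zone library was set apart.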

How the results depend on the processing

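The fits with the block and without 1 animal together were chosen after the data were seen. Between zones, 0 members passed under any alternative chosen at the outset, and all 9 had a fitted value above 0 in each but that without animal 1022, where IFIT1 was at -0.099 and IFIT2 at -0.043. The Wald test of DESeq2 gave MX1 and MX2 no adjusted p. With library totals in place of TMM, the median was 0.32 over all genes (0.04 with TMM) and 1.06 over the members (0.71). Over all genes, the 287 calls (285 higher in the border zone) became 41 with the animal as a replicate block, 1683 with the Wald test of DESeq2 (1390 higher), 1551 with library totals, 139 with no filter, 149 with at least 10 counts in every library and 0 to 519 when animals were left out in turn, with 0 calls without 1623 (2662 genes at an unadjusted p under 0.05) or without 3622 (2448), 3 without 1323, 15 without 1922, 163 without 1022 and 519 without 1322. With the block and an animal left out, the calls were 856 without animal 1022 (2 of them members, MX1 and MX2), 51 without 1322, 10 without 1323 and 0 without 1623, 1922 or 3622 (3227, 3565 and 2779 genes at an unadjusted p under 0.05), where IFIT1 and IFIT2 were reversed only without 1022, at -0.073 and -0.016.

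Between animals, the 27 calls over all genes became 2076 with DESeq2 (8 members), 123 with no filter (3 members, MX2, RSAD2 and IRF7), 2 with at least 10 counts in every library and 0 to 861 when animals were left out in turn (861 and 1 member, MX2, without 1022, 4 without 1922 and 0 without 1322, 1323, 1623 or 3622, with 2915, 1674, 2262 and 1518 genes at an unadjusted p under 0.05), where 0 to 1 members were called. The median correlation of members was 0.70 by Spearman's rho and 0.56 to 0.90 with each animal left out. Of the other pathway genes named, IRF5, TLR7, TRIM25 and SOCS3 passed between zones with library totals and with the Wald test of DESeq2, and TLR7, RIGI, TRIM25 and SOCS3 with the block without animal 1022. With the block and all animals none of these genes passed, with adjusted p from 0.0772 for TLR7 to 0.173 for IRF5. With 1 or with 3 bases between the copies of the motif, 2 members had a match. Filters and left-out animals change how many genes or libraries enter, and beyond that the cause was not tested. Depth limits the ligands, which had at most 10 counts in any library.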
